A study of Homo sapiens with 8 samples.

Results

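The genes described here are 10 p53 targets that act in programmed cell death: the cell surface receptor genes FAS, TNFRSF10A, TNFRSF10B, TNFRSF10C, TNFRSF10D and EDA2R, the BCL2 family genes BBC3, PMAIP1 and BAX, and the nuclease gene AEN. They were listed by symbol and read from the array's probe sets that the platform annotation gives exactly 1 symbol. This left 9 of the 10 genes with a value, each from 1 probe set, out of 18404 genes measured, while TNFRSF10C shares its only probe set with another symbol and is not analysed here. The treated group is 4 cultures of the human cell line HepG2, derived from a liver tumour, that were given 0.5 mM hydrogen peroxide (H2O2) for 60 minutes to make them senescent, that is, durably arrested in division, and the control group is 4 untreated HepG2 cultures that received medium alone. All 8 cultures come from this 1 tumour line, carry no transgene and were kept for 5 days before the senescent state was examined, and the design text calls the 4 cultures of a condition biological replicates. When RNA was taken is not stated separately.

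When p53, a transcription factor activated by DNA damage, drives a cell towards death, its targets act along 2 routes. On the cell surface, FAS and the receptors for the ligand TRAIL recruit the adaptor FADD and caspase 8 through a cytoplasmic death domain, and decoy receptors bind TRAIL without passing on the signal. At the mitochondrion, small killer proteins with only a BH3 motif, among them PUMA (gene BBC3) and NOXA (gene PMAIP1), block the survival proteins of the BCL2 family, so that BAX and BAK open the outer membrane and release cytochrome c. Hepatocytes are a cell type in which FAS ligation is known to be lethal.

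Promoter sequence from RefSeq (GRCh38.p14) was searched for 6 of the 10 genes, FAS, AEN, PMAIP1, BBC3, BAX and EDA2R. They have 9 start sites among them, some of whose windows overlap. TNFRSF10A, TNFRSF10B, TNFRSF10C and TNFRSF10D were left out of this search, so the counts of windows do not cover them. The 250 bases before each start were searched on both strands for the p53 consensus decamer, the unit that a p53 response element repeats, and for the GC box GGGCGG. The decamer was found before 1 of the FAS starts and before the AEN start, thus in 2 of 9 windows, against 5.57% of all 35116 windows of that length. The GC box was found in 8 of the 9 windows, against 42.6% of all windows. The 8 windows are not independent, because 2 overlapping FAS windows hold the same box and the 2 EDA2R windows share another. Of the 6 genes only BBC3 had none. The sequences before that FAS start (chr10:88991181-88991430, plus strand) and before the AEN start (chr15:88621090-88621339, plus strand) are shown because they hold the decamer, given in capitals. It begins 122 bases before the FAS start and 34 bases before the AEN start, and in neither does it overlap a GC box. The FAS start lies 633 bases downstream of the most upstream FAS start in that table. The sequence before the PMAIP1 start (chr18:59899746-59899995, plus strand) is shown as that of the gene with the next largest rise after FAS, and its capitals mark 4 GC boxes.
FAS: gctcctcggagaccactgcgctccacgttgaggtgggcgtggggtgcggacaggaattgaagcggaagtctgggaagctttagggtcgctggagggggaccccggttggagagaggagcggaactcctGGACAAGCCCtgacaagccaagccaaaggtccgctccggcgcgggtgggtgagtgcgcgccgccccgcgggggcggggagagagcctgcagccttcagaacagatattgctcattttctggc
AEN: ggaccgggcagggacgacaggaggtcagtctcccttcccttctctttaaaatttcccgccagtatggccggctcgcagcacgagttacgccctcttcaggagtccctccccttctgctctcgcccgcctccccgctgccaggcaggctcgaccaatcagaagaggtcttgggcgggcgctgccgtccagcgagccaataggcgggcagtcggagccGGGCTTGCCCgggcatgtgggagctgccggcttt
PMAIP1: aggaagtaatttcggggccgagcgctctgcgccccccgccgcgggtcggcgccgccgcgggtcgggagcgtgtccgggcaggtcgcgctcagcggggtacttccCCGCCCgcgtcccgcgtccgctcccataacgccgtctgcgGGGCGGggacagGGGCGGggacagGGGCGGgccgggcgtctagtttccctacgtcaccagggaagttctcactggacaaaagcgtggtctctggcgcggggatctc
A match describes the letters only. BBC3, BAX and EDA2R had no decamer in these windows, which says nothing of p53 binding elsewhere in the genes.

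Of the 9 measured genes 7 rose in H2O2-treated cells, 0 fell and 2 did not pass the test (limma, Benjamini-Hochberg adjusted p under 0.05 over all genes, the threshold used throughout). Over all genes 34.0% were called in either direction and 19.2% were called higher. The groups did not overlap in 7 of the 9 genes, always with H2O2 above, as in 18.9% of all genes. No member was lower at an unadjusted p under 0.05 either. The median log2 difference of the 9 genes was 0.57, against -0.022 for all genes. These genes were chosen with results of these data known, so the counts are descriptions. All differences are H2O2 minus untreated on the log2 scale with their standard error, levels are log2 means with their SD, n = 4 arrays per group, and adjusted p-values are from limma. Levels of different genes come from different probes and are not set against each other.

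**Figure D1:**
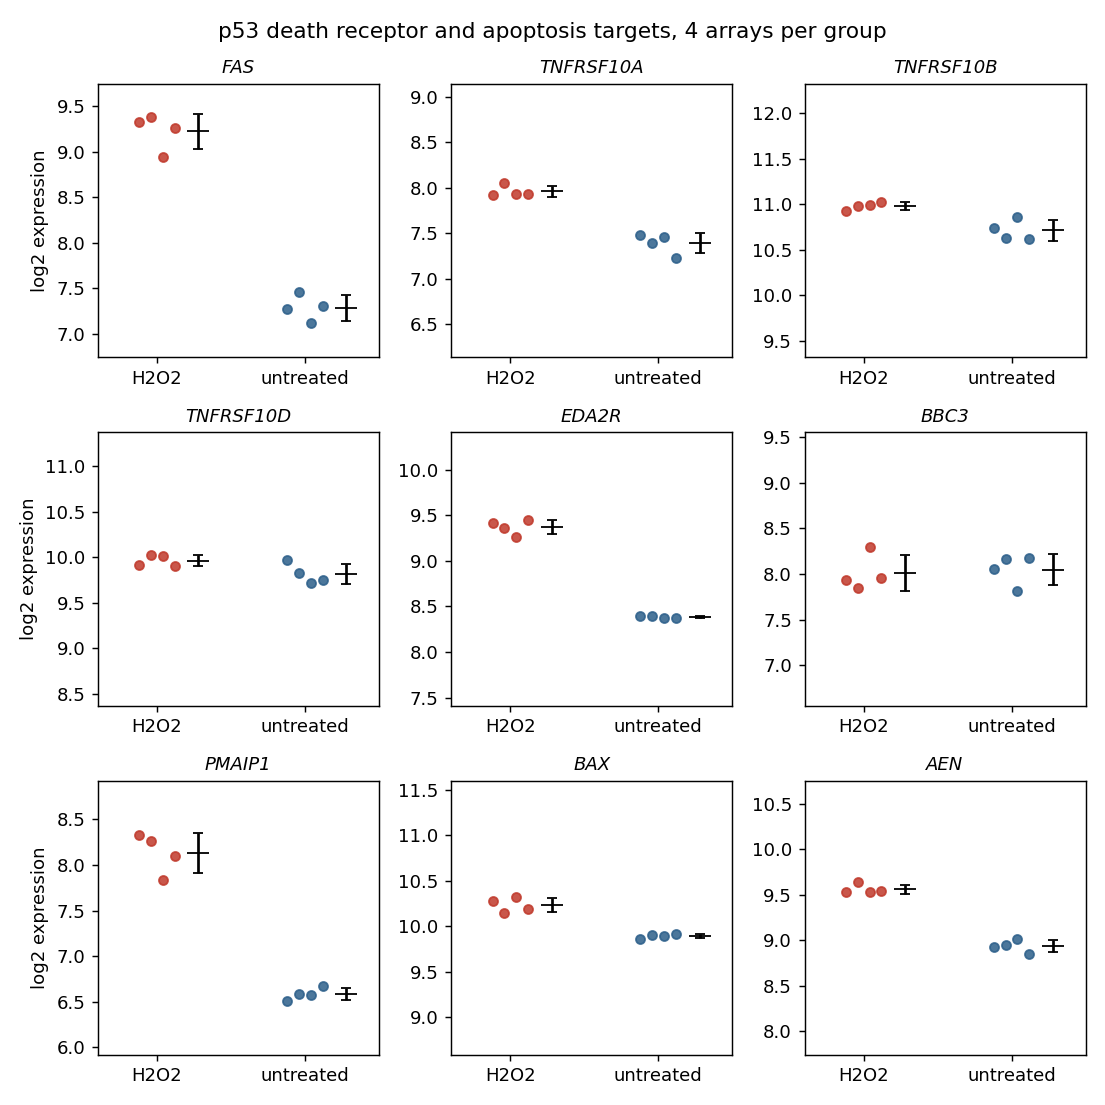
Log2 expression of the 9 measured genes (vertical axes, each spanning the same number of log2 units) on the 4 H2O2 arrays (red, left) and the 4 untreated arrays (blue, right), with points for arrays and black bars for the mean and SD. The groups are apart in 7 panels and overlap for TNFRSF10D and BBC3, and the widest gap is that of FAS.

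FAS, the receptor for FAS ligand, had the largest rise of the 9 genes. Its log2 values were 9.32, 9.37, 8.94 and 9.26 in H2O2 replicates 1 to 4, against 7.27, 7.46, 7.12 and 7.30 in untreated replicates 1 to 4. Every treated array was far above every untreated one, and the lowest H2O2 value exceeded the highest untreated value by 1.49. The difference was 1.94 ± 0.099, a 3.83-fold rise (95% confidence interval of the log2 difference 1.72 to 2.15, adjusted p = 5.38e-09). It was the 73rd largest rise among the 18404 genes. The untreated mean, 7.29 ± 0.14, was not tested against background, which limits how exactly the fold is known. H2O2 replicate 3 was the lowest treated array, and without it the difference was 2.03.

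The 2 TRAIL receptors that carry a full death domain rose by less. TNFRSF10A, which encodes TRAIL receptor 1 (DR4), had 7.92, 8.05, 7.93 and 7.93 in H2O2 replicates 1 to 4, against 7.48, 7.39, 7.46 and 7.23 in untreated replicates 1 to 4. The other 3 treated arrays were nearly equal below replicate 2, and all 4 were above the untreated range. The difference was 0.57 ± 0.073, or 1.49-fold (adjusted p = 3.06e-05). TNFRSF10B, which encodes TRAIL receptor 2 (DR5), had 10.92, 10.98, 11.00 and 11.03 in H2O2 replicates 1 to 4, against 10.74, 10.63, 10.87 and 10.62 in untreated replicates 1 to 4. The groups were apart by only 0.06, between H2O2 replicate 1 and untreated replicate 3. The difference was 0.27 ± 0.072, or 1.20-fold (95% confidence interval 0.11 to 0.42, adjusted p = 0.00967).

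TNFRSF10D, which encodes the decoy receptor DcR2 with a truncated death domain, did not pass the test. It had 9.91, 10.02, 10.01 and 9.91 in H2O2 replicates 1 to 4, against 9.97, 9.82, 9.72 and 9.76 in untreated replicates 1 to 4. The overlap came from untreated replicate 1, which was above 2 of the treated arrays. The difference was 0.14 ± 0.073 (95% confidence interval -0.012 to 0.30, adjusted p = 0.151), so a rise about as large as that of TNFRSF10B lies within its interval. The TRAIL receptor genes are paralogs of similar sequence, and whether probes of 1 gene also bind transcripts of another was not tested.

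Whether the TRAIL receptors changed by different amounts was tested on the log2 difference between 2 genes on the same array, with a two-sided exact permutation test over the 8 arrays, as part of 6 pairs of genes compared. The change of TNFRSF10A exceeded that of TNFRSF10D by 0.43 ± 0.064 and that of TNFRSF10B by 0.30 ± 0.056. For both pairs the groups were completely apart and the exact p = 0.0286, the smallest that the 70 arrangements allow, with p = 0.0429 after Benjamini-Hochberg adjustment over the 6 pairs. TNFRSF10B against TNFRSF10D differed by 0.12 ± 0.092 (exact p = 0.257, adjusted 0.257). A difference between the changes of DR5 and the decoy was thus not detectable with 4 arrays per group, which does not show that they changed alike. In all 6 pairs the genes were read by different probe sets. Whether these respond alike to a change in transcript was not tested, so unequal log2 changes need not be unequal changes in transcript.

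EDA2R encodes a receptor of the same family that binds the A2 form of ectodysplasin and has no death domain. It had 9.42, 9.36, 9.26 and 9.44 in H2O2 replicates 1 to 4, against 8.39, 8.39, 8.37 and 8.38 in untreated replicates 1 to 4. The untreated arrays were almost identical (SD 0.0088), and the treated arrays all lay at least 0.87 above them. The difference was 0.99 ± 0.065, a 1.98-fold rise (adjusted p = 6.74e-08), larger than in 98.1% of all genes.

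Of the killer proteins of the BCL2 family, NOXA and PUMA went apart. PMAIP1, which encodes NOXA, a BH3-only protein that binds MCL1, had 8.33, 8.26, 7.84 and 8.10 in H2O2 replicates 1 to 4, against 6.51, 6.58, 6.57 and 6.67 in untreated replicates 1 to 4. The treated arrays were spread more widely (SD 0.22) than the untreated ones (SD 0.067), but the nearest arrays of the groups were 1.17 apart. The difference was 1.55 ± 0.097, or 2.93-fold (adjusted p = 4.15e-08), larger than in 99.3% of all genes. PMAIP1 was the only one of the 9 genes whose untreated mean, 6.58 ± 0.067, lay below the arrays' medians of 6.85 to 6.93. Those medians are over all 32321 probe sets, of which 11775 have no symbol. The PMAIP1 level was not shown to be above background, which limits how exactly its fold is known. The untreated means of FAS (7.29) and TNFRSF10A (7.39) lay above the medians and were not tested against background either.

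BBC3, which encodes PUMA, a BH3-only protein that binds all the main survival proteins, did not pass the test. It had 7.93, 7.85, 8.30 and 7.96 in H2O2 replicates 1 to 4, against 8.05, 8.16, 7.81 and 8.17 in untreated replicates 1 to 4. The ranges lay across each other, with the highest value on a treated array and the lowest on an untreated one. The difference was -0.039 ± 0.11 (95% confidence interval -0.27 to 0.19, adjusted p = 0.822). A rise of the size seen for AEN or BAX lies above that interval.

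BAX, the pore-forming protein on which the killer proteins act, rose modestly. It had 10.28, 10.15, 10.32 and 10.18 in H2O2 replicates 1 to 4, against 9.86, 9.91, 9.89 and 9.91 in untreated replicates 1 to 4. The treated arrays were all above the untreated ones, by 0.23 at the closest. The difference was 0.34 ± 0.065, or 1.27-fold (adjusted p = 0.000941). In the paired contrasts within arrays the change of PMAIP1 exceeded that of BAX by 1.21 ± 0.14 and that of BBC3 by 1.59 ± 0.22, each with the smallest exact p = 0.0286 (adjusted 0.0429). BAX against BBC3 differed by 0.38 ± 0.11, with exact p = 0.0571 (adjusted 0.0686), so that contrast did not pass.

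AEN encodes a nuclease of the ISG20 family that p53 induces and that takes part in the breakdown of DNA in dying cells. It had 9.53, 9.64, 9.53 and 9.55 in H2O2 replicates 1 to 4, against 8.92, 8.94, 9.01 and 8.85 in untreated replicates 1 to 4. Both groups were tight and lay 0.51 apart at the nearest arrays. The difference was 0.63 ± 0.065, or 1.54-fold (adjusted p = 4.90e-06), larger than in 95.1% of all genes.

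**Figure D2:**
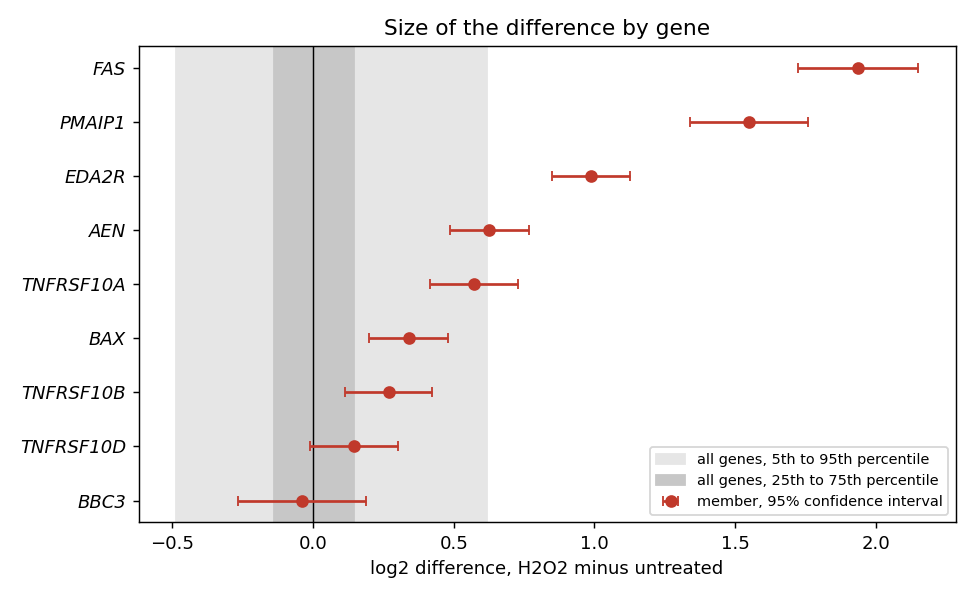
Log2 difference, H2O2 minus untreated (horizontal axis), of the 9 genes with 95% confidence intervals, over bands that hold the middle of all 18404 genes (25th to 75th percentile, -0.14 to 0.14, and 5th to 95th percentile, -0.49 to 0.62). FAS, PMAIP1 and EDA2R lie with their whole interval beyond the outer band, and the intervals of TNFRSF10D and BBC3 include 0.

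The 7 genes that rose did not follow the same order across the treated arrays. H2O2 replicate 3 was the lowest treated array for 4 of them, FAS, PMAIP1, EDA2R and AEN, and the highest for BAX. It was also the highest for BBC3. H2O2 replicate 2 was the highest treated array for 3 of the 7. Without H2O2 replicate 3 the same count of 7 genes passed.

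HepG2 arrays showed high levels of liver products in both groups, with 0 of 7 measured hepatocyte markers below the arrays' medians, such as ALB, serum albumin (12.31 ± 0.081 in H2O2, 12.55 ± 0.034 in untreated cells). Of those markers 5 fell and 1 rose, and their summed log2 level was 80.18 to 82.45 on H2O2 arrays and 83.64 to 83.97 on untreated arrays. Of the markers of other cell types, 4 of 5 for leukocytes, 4 of 4 for endothelium and 3 of 5 for stellate cells and fibroblasts lay below the arrays' medians in treated cells. The summed leukocyte level was 29.43 to 30.01 on H2O2 arrays and 29.46 to 29.87 on untreated arrays. The endothelial level was 24.22 to 24.99 on H2O2 arrays and 24.25 to 24.81 on untreated arrays, and that of stellate cells and fibroblasts 29.32 to 30.65 on H2O2 arrays and 30.41 to 31.10 on untreated arrays. PTPRC, the leukocyte antigen CD45, was at 4.09 in H2O2 and 4.23 in untreated cells and was not called. Of the leukocyte markers 1 rose, CD14 (0.27 ± 0.064, to 7.53 in H2O2), and 0 fell. Of the endothelial markers 0 rose and 1 fell, CDH5 (-0.25 ± 0.073). Of the stellate cell and fibroblast markers 1 rose, COL1A1 (0.41 ± 0.076). PDGFRB, of the same list, fell by 1.15 ± 0.088, from 8.13 in untreated cells to 6.97 in H2O2. The part of these shifts in the results was not tested. An array averages a whole culture, so a rise in every cell and a rise in some cells cannot be told apart.

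The other genes of the pathway were read from lists drawn up by role, and the counts stand beside the shares of all genes tested, of which 34.0% passed, 19.2% higher and 14.8% lower. The p53 response as a whole was visible in CDKN1A, the cell cycle inhibitor p21 (2.36 ± 0.067), and in MDM2, the p53 ubiquitin ligase, which rose by 0.77 ± 0.065. Of 16 other measured p53 targets tied to apoptosis 11 rose and 1 fell (median 0.50). PLK2, a stress-induced kinase, averaged 8.45 ± 0.17 in H2O2 and 6.33 ± 0.053 in untreated cells and rose by 2.13 ± 0.085. Its untreated level lay below the arrays' medians and was not shown to be above background, which limits how exactly this difference is known. TP53I3, an oxidoreductase, rose by 1.66 ± 0.068 and TP53INP1, a stress protein of autophagy and cell death, by 1.56 ± 0.064, whereas SIVA1, a pro-apoptotic adaptor, fell by 0.52 ± 0.11. Among 16 measured regulators of p53 5 rose and 3 fell (median -0.050). Beside MDM2 these included the damage-sensing kinase ATR (0.59 ± 0.081) and the phosphatase PPM1D (0.58 ± 0.065), and among the falls the checkpoint kinases CHEK2 (-0.79 ± 0.093) and CHEK1 (-0.78 ± 0.082) and the deubiquitinase USP7 (-0.29 ± 0.082).

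The ligand genes of the raised receptors did not rise with them, apart from EDA. TNFSF10, which encodes TRAIL, had 9.0005, 9.0042, 8.62 and 8.97 in H2O2 replicates 1 to 4, against 9.60, 9.41, 9.51 and 9.51 in untreated replicates 1 to 4. All treated arrays were below all untreated ones. The difference was -0.61 ± 0.089, or 0.657-fold (adjusted p = 0.000115). FASLG, the FAS ligand, was at 5.96 ± 0.15 in H2O2 and 6.26 ± 0.14 in untreated cells, both below the arrays' medians, with a difference of -0.31 ± 0.090 (adjusted p = 0.0171). That call was lost without untreated replicate 1 or 2 or H2O2 replicate 1 or 4, at adjusted p of 0.0525 to 0.0608. EDA, which encodes ectodysplasin, averaged 7.06 ± 0.19 in H2O2 and 6.59 ± 0.11 in untreated cells, and rose by 0.47 ± 0.095 (adjusted p = 0.00151). Its untreated level lay below the arrays' medians and was not shown to be above background. The value is for the gene as a whole, so whether the form of ectodysplasin that EDA2R binds rose was not tested. The other ectodysplasin receptor, EDAR, lay below the medians in both groups and gave -0.039 ± 0.067 (adjusted p = 0.709).

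In the list of death ligands, other death receptors and soluble decoys 3 of 11 measured genes rose and 2 fell (median 0.080). The 3 that rose were all receptors: NGFR, the neurotrophin receptor p75 (1.46 ± 0.065), TNFRSF12A, the TWEAK receptor (1.18 ± 0.072), and TNFRSF21, death receptor 6 (0.91 ± 0.085). TNFRSF11B, osteoprotegerin, a soluble decoy that also binds TRAIL, was below the arrays' medians and gave 0.080 ± 0.11 (adjusted p = 0.632). Of 8 measured genes around EDA2R 3 rose and 0 fell, and none was lower at an unadjusted p under 0.05. Beside EDA these were TNFRSF19, an orphan receptor of the family (0.39 ± 0.092), and TRAF6, an adaptor that links such receptors to NF-kB (0.30 ± 0.070).

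Below the receptors, both the step that starts the caspase cascade and its brake were higher. Of 15 measured adaptors, caspases and inhibitors 6 rose and 1 fell (median 0.11). FADD rose by 0.36 ± 0.071. CASP8, the caspase that the death receptors activate, had 9.11, 9.16, 9.01 and 9.13 in H2O2 replicates 1 to 4, against 8.40, 8.33, 8.59 and 8.42 in untreated replicates 1 to 4, and rose by 0.67 ± 0.073. CFLAR, which encodes FLIP, the competitor of caspase 8 at the receptor, had 9.35, 9.38, 9.33 and 9.44 in H2O2 replicates 1 to 4, against 8.94, 8.85, 8.83 and 8.68 in untreated replicates 1 to 4, and rose by 0.55 ± 0.071. For both genes the groups were well apart. The executioner caspase CASP6 rose by 0.50 ± 0.094, and BIRC5, the mitotic inhibitor of apoptosis survivin, fell by 0.87 ± 0.098.

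**Figure D3:**
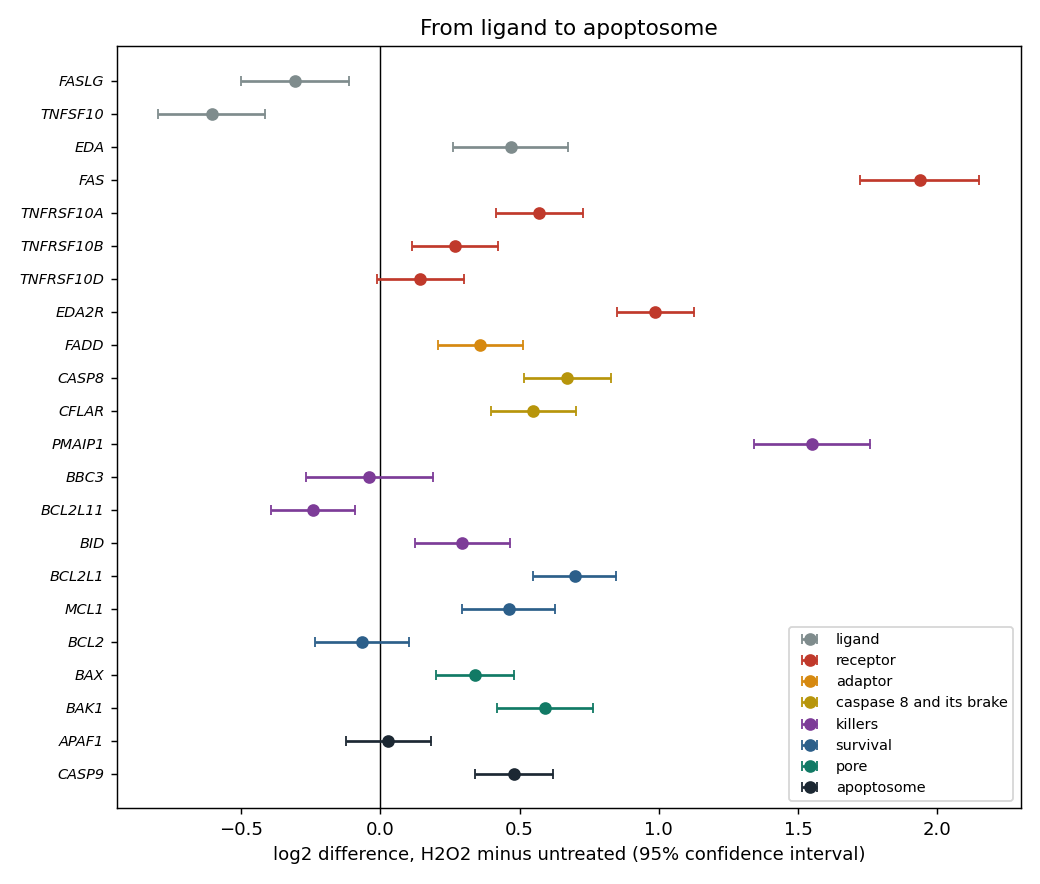
Log2 difference, H2O2 minus untreated, with 95% confidence intervals (horizontal axis), for genes ordered from ligand through receptor, adaptor and caspase 8 to the mitochondrial step, coloured by step. The ligands FASLG and TNFSF10 lie below 0, and the ligand EDA and the receptors FAS, TNFRSF10A, TNFRSF10B and EDA2R above it. CASP8 with CFLAR and PMAIP1 with BCL2L1 and MCL1 lie above 0 together. BCL2L11 lies below 0, and the intervals of TNFRSF10D, BBC3, BCL2 and APAF1 include 0.

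At the mitochondrion, genes for survival proteins and for killers both changed. Of 19 measured genes of the BCL2 family outside the 10 described above, 8 rose and 5 fell (median 0.051). Among survival genes BCL2L1, which encodes BCL-XL, had 11.62, 11.52, 11.56 and 11.60 in H2O2 replicates 1 to 4, against 10.83, 10.84, 11.03 and 10.82 in untreated replicates 1 to 4. The groups were apart, and it rose by 0.70 ± 0.069. MCL1, the main partner of NOXA, rose by 0.46 ± 0.078 and BCL2A1, another partner of NOXA, by 0.82 ± 0.10, from levels of which only that of BCL2A1 (6.41 ± 0.13 in H2O2, 5.59 ± 0.23 in untreated cells) was below the arrays' medians. BCL2 itself lay below the medians in both groups and gave -0.066 ± 0.078 (adjusted p = 0.574).

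The other pore-former BAK1 rose by 0.59 ± 0.080, and BID, which carries the death receptor signal to the mitochondrion once caspase 8 cuts it, by 0.29 ± 0.079. The BH3-only genes BCL2L11, which encodes BIM (-0.24 ± 0.070), and BMF (-0.45 ± 0.073) fell. So did the hypoxia-regulated mitophagy receptors BNIP3 (-1.24 ± 0.065) and BNIP3L (-0.75 ± 0.069), the 2 largest falls of the family.

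Of 11 measured genes of mitochondrial release and the apoptosome, which act once the outer membrane opens, 1 rose and 0 fell by limma, with 1 higher and 0 lower at an unadjusted p under 0.05. Of all genes 34.0% passed the adjusted threshold in either direction. The gene that rose was CASP9, the initiator caspase of the apoptosome (0.48 ± 0.065), and its scaffold APAF1, a p53 target in other settings, gave 0.028 ± 0.071 (adjusted p = 0.807). Among 9 measured relatives of AEN and apoptotic nucleases 4 rose and 0 fell, with 1 lower at an unadjusted p under 0.05. They included REXO2, a mitochondrial oligoribonuclease (0.59 ± 0.072), the lysosomal nuclease DNASE2 (0.56 ± 0.068), and DFFA, the inhibitor and chaperone of the caspase-activated DNase (0.29 ± 0.067).

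**Figure D4:**
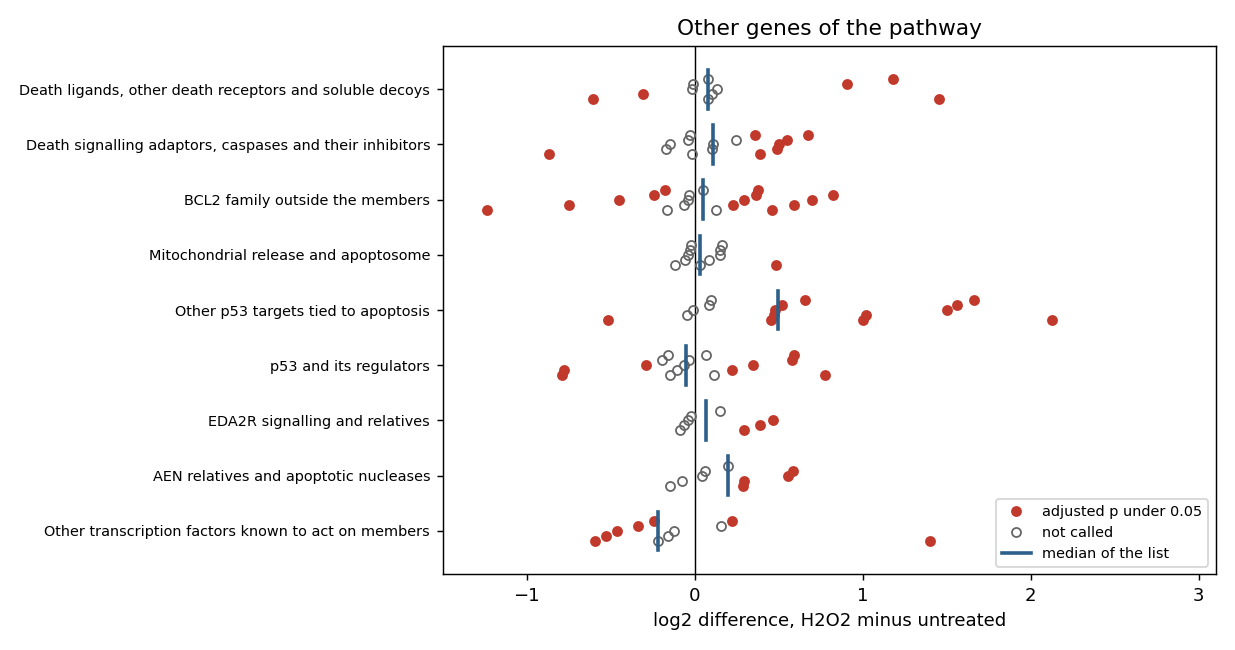
Log2 difference, H2O2 minus untreated (horizontal axis), of each measured gene in 9 pathway lists that leave out the 10 main genes, with filled red points for genes past an adjusted p of 0.05, open points for the rest and blue bars for list medians. The list of other p53 targets has the highest median, 0.50, and the apoptosome list lies close to 0 with 1 gene called.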

How the data were processed

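Total RNA of 8 HepG2 cultures was labelled with biotin as sense cDNA and hybridised to single-channel whole-transcript arrays, per the labels' protocols. The table used holds log2 values per probe set, as deposited by the authors. Summarization and normalization of the probe sets are not stated in these sources. The tool limma is named, without a version, per the submitters' processing notes. For arrays, their number limits the precision.

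Of 32321 probe sets 19158 have 1 symbol in the platform annotation, 1388 several and 11775 none. Those with 1 symbol gave 18404 genes, and for 637 genes with several the one with the highest mean was taken. Entrez identifiers of 19128 probe sets were found in a RefSeq table (GRCh38.p14), which changed 0 symbols. No filter on low values was used. The values come with no genome build, so the promoter coordinates are RefSeq's alone. The arrays correlated at r = 0.990 to 0.996 within groups and 0.979 to 0.985 between groups.

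limma 3.58.1 in R 4.3.3 was fitted to all genes with 1 mean per group, empirical Bayes moderation and Benjamini-Hochberg adjustment, and tested on simulated data. Other steps used Python 3.11.15, pandas 2.3.3, numpy 2.4.6, scipy 1.17.1 and matplotlib 3.10.9. Of 9 planned pairs of genes, 3 needed TNFRSF10C and could not be tested. The alternatives were quantile normalization, median centring, leaving out dim genes, all probe sets, the mean of probe sets, a trend with robust moderation, the replicate number as a block, and leaving out each array. The genes, the lists and the naming rule were chosen with earlier results of these data known. The rule names all 10 genes, from each list at most 3 rises and 3 falls, the largest that passed the test, and 23 fixed genes, of which 20 had a value.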

Additional observations from a re-analysis of the deposited data

Results flagged for a closer look

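In 4 of 112 groups of 4 arrays, over 56 genes, 1 array lay far from the other 3, where chance gives about 1 in 20. TNFRSF10A was at 8.05 on H2O2 replicate 2, against 7.92 to 7.93 on the other treated arrays, and without that array its difference was 0.54. TNFSF10 was at 8.62 on H2O2 replicate 3, against 8.97 to 9.0042, and without it its difference was -0.51. BNIP3 was at 11.04 on H2O2 replicate 2, against 10.91 to 10.93. BCL2L1 was at 11.03 on untreated replicate 3, against 10.82 to 10.84. All 4 genes passed the test in each fit that left out 1 array.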

How the results depend on the processing

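The count of 7 genes higher and 0 lower held in every alternative run except the one that left out dim genes, where PMAIP1 was not among the genes tested and 6 passed. TNFRSF10B had the weakest call, with adjusted p-values of 0.00142 to 0.0343, and TNFRSF10D stayed uncalled at 0.067 to 0.297. BBC3 was uncalled throughout, and its difference changed sign when single arrays were left out (-0.14 to 0.014). The uncalled pathway genes APAF1 and TNFRSF11B did the same: the first was at -0.0066 after quantile normalization and at -0.016 to 0.074 with single arrays left out, and the other at -0.023 to 0.13. Deviations of same-numbered arrays correlated at -0.247 to 0.094, and those of different-numbered arrays at -0.261 to 0.186. So few correlations cannot decide whether the replicate numbers pair the cultures. With the number as a replicate block 7 genes rose and 0 fell, TNFRSF10B passed at adjusted p = 0.0244, and 3288 genes in all were called higher and 2470 lower. The changes between pairs of genes kept their sign with each array left out, as values with no test, and after quantile normalization. Over all genes 2772 to 3752 were called higher and 2228 to 3319 lower. Among the pathway lists, quantile normalization called 5 regulators of p53 lower in place of 3, and 2 adaptors, caspases and inhibitors lower in place of 1, a count also reached without dim genes. Death ligands and receptors called lower came to 1 in place of 2 without dim genes or where FASLG lost its call, and other transcription factors called higher to 1 in place of 2 where ATF3 did.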

Other observations

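Transcription factors other than p53 that are known to act on these genes went both ways. Of 11 measured, 2 rose and 5 fell (median -0.22), beside 19.2% of all genes called higher and 14.8% called lower. The share that rose was thus near that of all genes. JUN, a subunit of AP-1, rose by 1.40 ± 0.090. ATF3, a stress factor that lay below the arrays' medians in both groups, gave 0.22 ± 0.071 (limma adjusted p = 0.0249), a call that was lost without untreated replicate 1 or 3 or H2O2 replicate 2 or 4. ATF4, the effector of the integrated stress response that can raise NOXA and DR5, fell by 0.46 ± 0.071, and its target DDIT3, or CHOP, gave -0.12 ± 0.098 (adjusted p = 0.381). E2F1, a cell cycle factor that can induce killer genes, fell by 0.60 ± 0.067, and MYC fell by 0.53 ± 0.065. ATF4 was at 10.23 ± 0.10 in H2O2 and 10.70 ± 0.061 in untreated cells, and the groups of arrays did not overlap.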
